A study of Bos taurus with 8 samples.

Results

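The interaction of prepartum diet with day around calving was examined in bovine PMNL (polymorphonuclear leukocytes, the blood fraction in which neutrophils prevail). It is the day change (day +7 minus day -14) on diet M minus the day change on diet S. All 8 arrays of the series and the 16 RNA samples on them entered 1 model, and the interaction was estimated for 13080 rows, of which 8503 carry a gene symbol. A row is a gene, or a feature without a symbol, with a value on all 8 arrays.

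The cells came from 8 Holstein cows, 4 on each of 2 diets fed through a 45-day dry period and labelled M and S. The submitters describe one diet, rich in wheat straw, at 1.34 Mcal of net energy per kg and at least 100% of the calculated requirement. The other, based on corn silage, had 1.62 Mcal per kg and supplied over 140%. The labels do not say which of them is M and which is S. After calving all cows ate the same lactation diet of 1.69 Mcal per kg, so the day +7 samples of both groups share the postpartum ration and lactation. The 4 groups are diet M at day +7, diet M at day -14, diet S at day +7 and diet S at day -14. Each array set 2 RNA samples against each other in 2 colours. There were 2 arrays for day +7 over day -14 in diet M, 2 for the same in diet S, 2 for M over S at day +7 and 2 for M over S at day -14.

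Both diet M day arrays paired the 2 days of 1 cow. Both diet S day arrays paired a day +7 sample with a day -14 sample of another cow. Every cow supplied both days over the whole set, and each array entered the interaction with a weight of 0.25 in size, so that a constant difference between cows has a net weight of 0 in it. That holds for the full interaction only. Constant differences among the 4 diet S cows stay in the diet S day arrays, in the fitted day change of each diet and in the interaction read from either set of 4 arrays alone. The 4 arrays that pair days and the 4 that pair diets share no RNA sample, and the interaction is the mean of the value from each set. The arrays had values for 27679 to 32580 of 43803 features, and their number limits the precision. The SD of the log2 ratios was 0.577 to 0.896 on 7 arrays. It was 1.49 on the second array of M over S at day +7, which carried cow 8041 of diet S and cow 7977 of diet M. The sources used here do not say which dye is on top of the ratio, and Cy5 over Cy3 was assumed on all 8 arrays. With Cy3 on top throughout, every sign below would turn and the sizes, errors and p-values would stay; with a mixture of both, the sizes would change too.

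Neutrophils are short-lived cells that leave the bone marrow with most of their granule proteins already made. They find microbes through Toll-like receptors, complement receptors and chemokine receptors, and kill them with an oxidative burst, granule proteins and extracellular traps. Interferons switch on a set of antiviral genes in them. Around calving dairy cows pass through negative energy balance, a surge of glucocorticoids and a period of impaired neutrophil function, which is why dry-period energy intake is studied in these cells.

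No row passed an adjusted p of 0.05 for the interaction (limma, Benjamini-Hochberg over all rows, 0% of 13080 rows; lowest adjusted p 0.716). An unadjusted p under 0.05 was found for 832 rows, against 654 that make up 5% of the rows. Of these, 723 had a positive interaction (5.53% of all rows) and 109 a negative one (0.833%). The count was 430 without the second diet M day array, which carried cow 7973, and 469 without the second diet S day array. It was 263 without the arrays of cow 7472, 496 without those of cow 7631 and 484 without those of cow 8041. The genes below therefore describe these arrays, and none of them is a called difference. Their p-values and SEs rest on the spread of each row among 8 arrays of 8 cows, which limma moderates toward the spread over all rows. They rest on no other cows, and the model had no term for cow. Behind the median of a gene list, the words "1 left out" give its lowest and highest value when 1 array or 1 cow was left out.

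**Figure D1:**
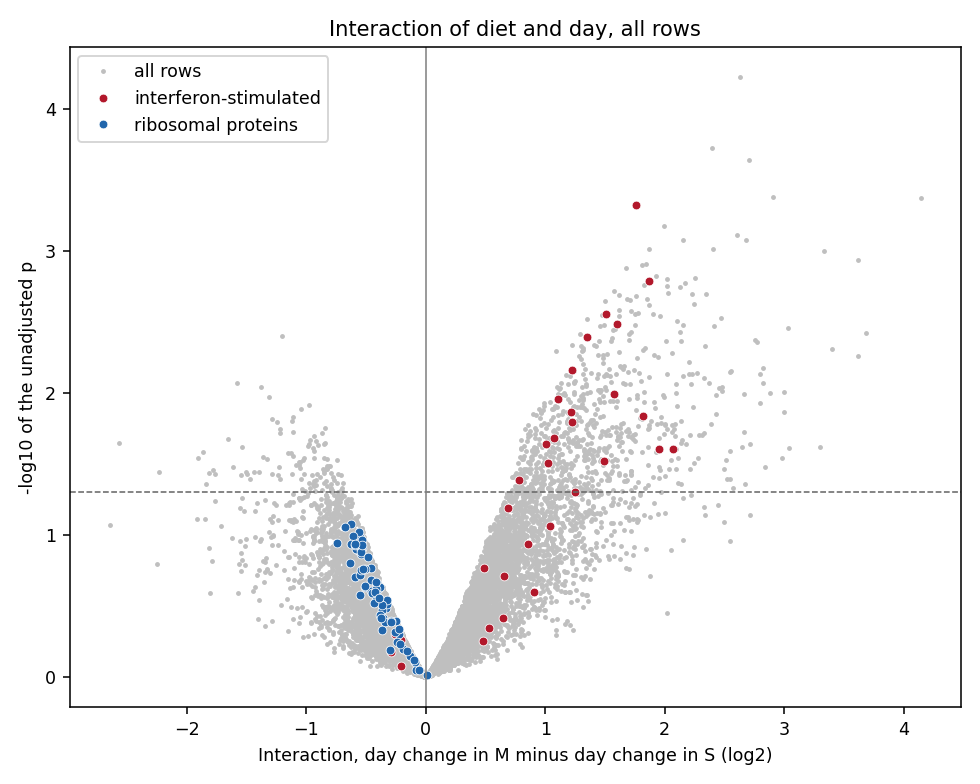
Interaction of diet and day (log2, x axis) against -log10 of its unadjusted p (y axis) for all 13080 rows, with 32 interferon-stimulated genes in red and 69 ribosomal protein genes in blue. The dashed line marks an unadjusted p of 0.05; 723 rows lie above it on the positive side and 109 on the negative side.

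The positive and negative sides had a simple form. Of the 723 positive rows, 678 had a fitted day change above 0 on diet M and below 0 on diet S, while 34 were below 0 in both and 11 above 0 in both. Their median day change was 0.50 (log2) on diet M and -0.81 on diet S, and the diet S value was the larger in size for 507 of them. Of the 109 negative rows, 93 had a day change below 0 on diet M and above 0 on diet S, with medians of -0.48 and 0.49. These splits are part of how the rows were picked and are given as a description. Over all 13080 rows the median day change was 0.02 in each diet. The day change itself had no row past an adjusted limma p of 0.05 in either diet (0%). At an unadjusted p under 0.05, 287 rows were found on diet M (2.19%), 195 of them above 0, and 537 on diet S (4.11%), 104 of them above 0.

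The interaction could be read from the 4 day arrays and from the 4 diet arrays, which share the 4 diet S cows but no RNA sample. A constant difference among those cows enters the 2 values with opposite signs, so the share of rows with like signs has no known value without an interaction. Both values were above 0 in 30.4% of all rows and below 0 in 30.5%. A stricter description asks that both diet M day arrays lie above both diet S day arrays, and both day +7 diet arrays above both day -14 diet arrays. That held for 557 rows (4.26%), and the mirror image held for 327 (2.5%).

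**Figure D2:**
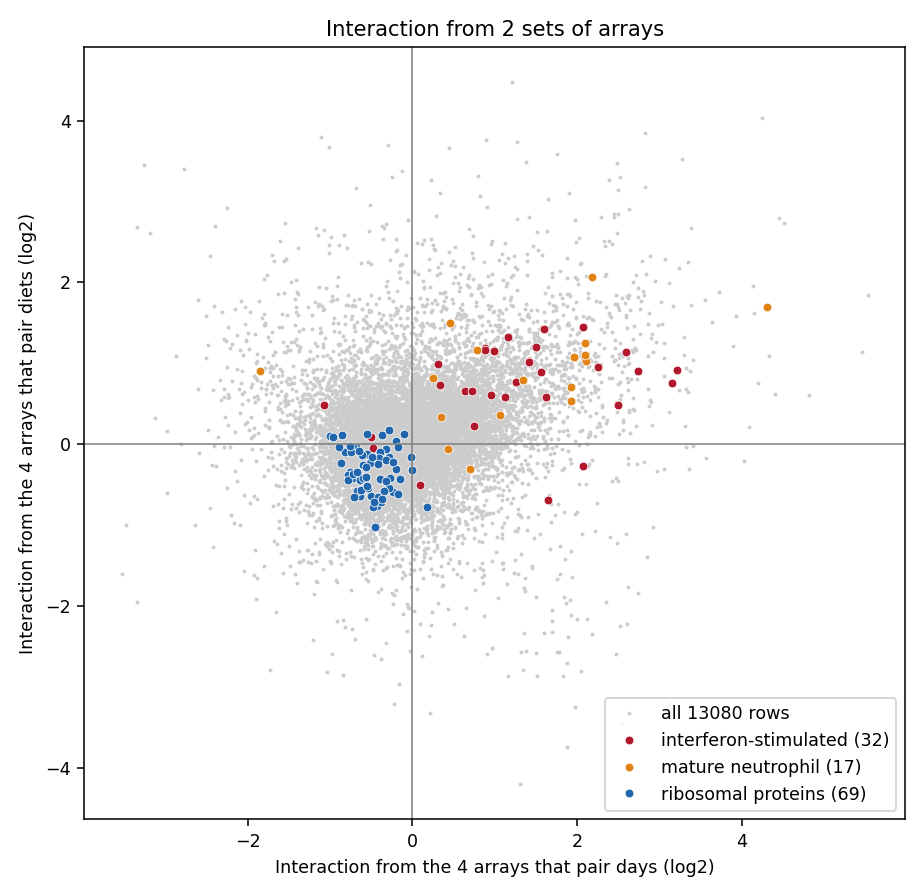
Interaction from the 4 arrays that pair days (x axis, log2) against the interaction from the 4 arrays that pair diets (y axis, log2), for all 13080 rows in grey. Of 32 interferon-stimulated genes (red) 26 were above 0 in both sets, of 17 mature neutrophil genes (orange) 14 were, and of 69 ribosomal protein genes (blue) 60 were below 0 in both; over all rows 30.4% were above and 30.5% below 0 in both.

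Interferon-stimulated genes lay mostly on the positive side. Of 46 genes in the list 32 were measured, and 28 of them had a positive interaction, against 47.1% of all rows. The median over the 32 was 1.06 (log2), against -0.03 over all rows. Of the members with an unadjusted p under 0.05, 19 were positive (5.53% of all rows) and 0 negative (0.833% of all rows). The fitted day change was above 0 in 31 of the 32 on diet M (median 0.61) and in 7 of the 32 on diet S (median -0.52). In bulk RNA of this kind, fewer cells of a type and less RNA per cell cannot be told apart.

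The list median on each array showed the same order. It was 0.94 and 0.42 on the diet M day arrays, against -0.38 and -0.89 on the diet S day arrays. For M over S it was 1.62 and 0.76 at day +7, against 0.47 and 0.33 at day -14. Neither pair of array types overlapped. In 17 of the 32 genes both diet M day arrays were above 0 and both diet S day arrays below 0 (7.84% of all rows), and the stricter order in both sets of arrays held for 15 (4.26% of all rows). Leaving out 1 array or 1 cow at a time gave medians of 0.66, without cow 7944, to 1.42, without cow 8041.

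**Figure D3:**
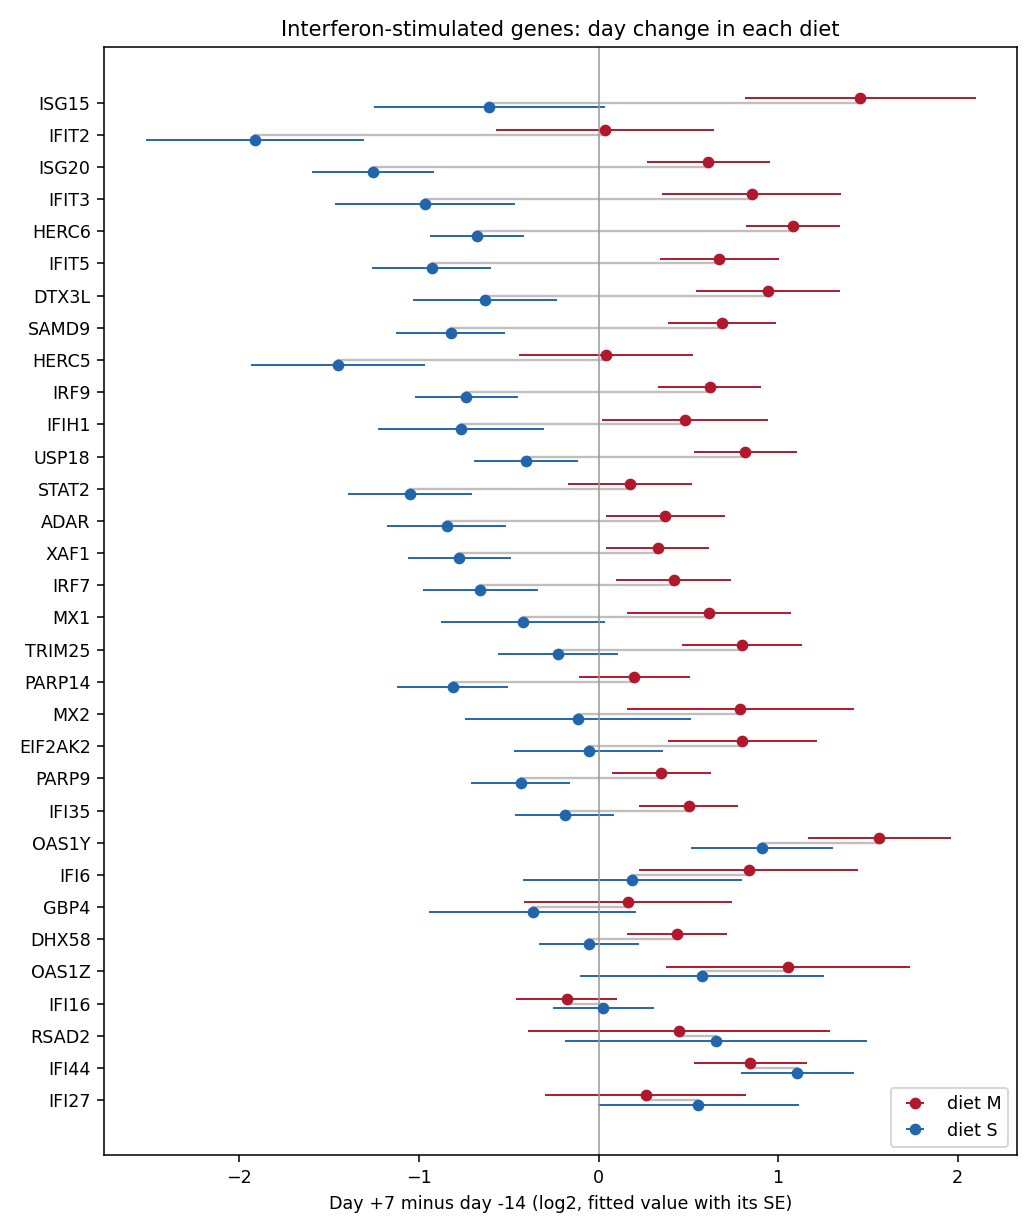
Fitted day change, day +7 minus day -14 (log2, x axis), of 32 interferon-stimulated genes on diet M (red) and diet S (blue), ordered by their interaction; bars are the SE of the fit over 8 arrays. For 31 genes the diet M point lies above 0, and for 7 the diet S point does. OAS1Y, OAS1Z, IFI6, IFI27, IFI44 and RSAD2 have both points above 0.

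HERC6, a ubiquitin ligase of the interferon response, had the smallest p of the list. It stood at 1.35 and 1.12 on the diet M day arrays, against -0.47 and -1.19 on the diet S day arrays. Its M over S ratios were 1.71 and 2.38 at day +7, against 0.87 and 0.31 at day -14. M was thus the higher diet on all 4 diet arrays, and more so at day +7, with no overlap between the array types. The interaction of HERC6 was 1.76 ± 0.30 (log2 ± SE of the fit over 8 arrays), with an unadjusted limma p of 0.000473 and an adjusted p of 0.716. Its 2 features gave 1.49 and 2.03.

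ISG20, an RNA exonuclease, had 0.96 and 0.99 on the diet M day arrays, against -1.46 and -1.78 on the diet S day arrays. The diet arrays, M over S, gave 1.53 and 2.35 at day +7, against 0.99 and 0.60 at day -14. Both sets of arrays were apart for ISG20, and its interaction was 1.87 ± 0.39. SAMD9, an antiviral factor, had an interaction of 1.51 ± 0.35, with fitted day changes of 0.69 on diet M and -0.82 on diet S. ZNFX1, a helicase that senses viral RNA, had an interaction of 1.68 ± 0.34, and its 4 features ran from 1.27 to 2.05. ZNFX1 was not a member of the list.

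ISG15, a ubiquitin-like protein attached to other proteins in the response, had the highest estimate of the list, 2.07 ± 0.74. It stood at 3.11 and 0.95 on the diet M day arrays, against -1.21 and -1.15 on the diet S day arrays. Its M over S ratios were 1.81 and -0.19 at day +7, against 0.36 and -0.58 at day -14, so that the diet arrays overlapped. IFIT2 and IFIT3, antiviral proteins that bind RNA or one another, had 1.95 ± 0.70 and 1.82 ± 0.58. ISG15, IFIT2 and IFIT3 were picked for description after their values were seen.

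Other genes had estimates below these. MX1, a GTPase that blocks viral replication, had day changes of 0.62 on diet M and -0.42 on diet S, and an interaction of 1.04 ± 0.53 (unadjusted p 0.0859). OAS1Y, an oligoadenylate synthetase, was above 0 in both diets, at 1.56 on M and 0.91 on S (interaction 0.65 ± 0.46). IFI44 likewise stood at 0.85 on M and 1.11 on S, which gave -0.26 ± 0.36. The list was therefore not uniform, and 4 of its 32 measured members had a negative interaction.

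Genes of mature neutrophils had a similar shift. Of 17 measured, 16 had a positive interaction, with a median of 1.07 (1 left out: 0.69 to 1.42). At an unadjusted p under 0.05, 7 were positive (5.53% of all rows). The arrays did not overlap in either set for 2 of the 17, on the positive side, against 4.26% of all rows. The median day change was 0.76 on diet M and -0.65 on diet S. MXD1, a MYC-antagonising repressor induced as neutrophils mature, had 1.01 and 1.37 on the diet M day arrays, against -0.33 and -1.66 on the diet S day arrays. Set M over S, the values were 1.84 and 3.49 at day +7, against 0.28 and 0.92 at day -14. The array types were apart in both sets, and the interaction was 2.12 ± 0.45. SORL1, a sorting receptor abundant in neutrophils, had an interaction of 1.52 ± 0.42, and its 5 features ran from 1.31 to 1.73.

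G0S2, an inhibitor of triglyceride lipase, had the largest estimate among the named mature neutrophil genes, 2.997 ± 0.878. Its diet M day arrays read 1.55 and 1.43, against -1.64 and -3.97 on the diet S day arrays. For M over S, however, G0S2 read -0.81 and 4.17 at day +7, against 0.27 and -0.30 at day -14, so that the diet arrays overlapped. On the list as a whole, the 2 diet arrays of day +7 gave medians of 0.53 and 2.70, against 0.20 and 0.88 at day -14. The diet M day arrays had 0.65 and 1.03, against 0.14 and -1.14 on the diet S day arrays, so that the diet arrays overlapped and the day arrays did not.

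Granule and antimicrobial protein genes lay on the other side, with wide spread. These are made in the marrow precursors, and 14 of 19 measured had a negative interaction (median -0.42). At an unadjusted p under 0.05, 3 of these genes were negative (0.833% of all rows) and 0 positive (5.53% of all rows). Unlike the groups above, most were above 0 in both diets, with a median day change of 0.88 on diet M and 1.81 on diet S. The diet S arrays stood far apart: the list median was 4.69 on the first diet S day array and -1.05 on the second, against 1.02 and 0.41 on the diet M day arrays. The median interaction was 0.06 without the first diet M day array and 0.18 without the first diet S day array, and it was 0.22 without the second array of M over S at day -14.

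LTF, the iron-binding protein lactoferrin of specific granules, had 2.09 and 0.29 on the diet M day arrays, against 5.52 and 0.67 on the diet S day arrays. Its M over S ratios were -3.49 and 1.84 at day +7, against 1.69 and 0.48 at day -14. The array types overlapped in both sets, and the interaction of LTF was -1.91 ± 0.71. LCN2, which binds bacterial siderophores, was the member whose arrays did not overlap in either set, with an interaction of -1.39 ± 0.55. ORM1, an acute-phase glycoprotein, had -1.53 ± 0.55, with day changes of 1.04 on diet M and 2.58 on diet S.

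CATHL2, a cathelicidin antimicrobial peptide, showed how far the arrays could differ. It had 2.38 and 0.50 on the diet M day arrays, against 9.12 and -1.05 on the diet S day arrays. The interaction was -0.41 ± 1.85, and it was positive or negative depending on which array was left out. HP (haptoglobin, -0.77 ± 1.71), MMP9 (gelatinase, -1.12 ± 1.23) and the decoy receptor IL1R2 (-1.07 ± 1.23) had errors as large as their estimates or larger. The calprotectin subunits S100A8 (-0.42 ± 0.89) and S100A9 (-0.18 ± 0.97) did too.

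**Figure D4:**
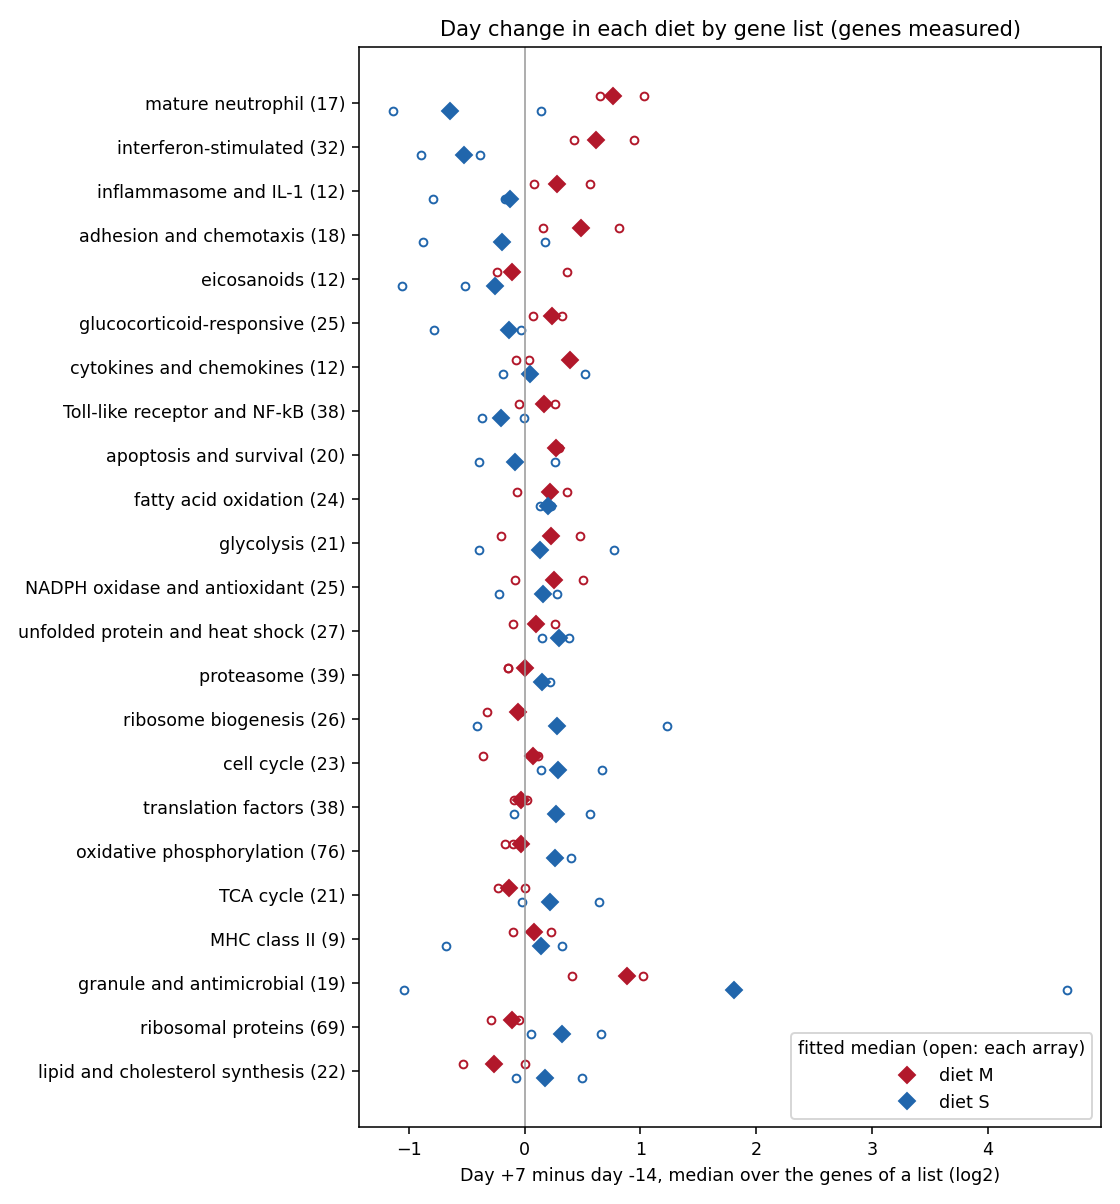
Median day change, day +7 minus day -14 (log2, x axis), over the measured genes of 23 lists, for diet M (red, upper) and diet S (blue, lower); filled diamonds are the fitted median and open circles the median on each of the 2 day arrays. The mature neutrophil and interferon-stimulated lists sit at 0.76 and 0.61 on diet M, against -0.65 and -0.52 on diet S, and the granule list has 4.69 and -1.05 on the 2 diet S arrays.

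Pathogen sensing and interleukin-1 genes also lay mostly on the positive side. Of 12 inflammasome and interleukin-1 genes measured 9 had a positive interaction (median 0.71, 1 left out: 0.40 to 1.12). Of these, 5 had an unadjusted p under 0.05 (5.53% of all rows). All 12 had a day change above 0 on diet M, and 4 did on diet S. The median was 0.08 and 0.56 on the diet M day arrays, against -0.17 and -0.79 on the diet S day arrays. For M over S it was 0.73 and 2.03 at day +7, against 0.53 and 0.82 at day -14, so that the diet arrays overlapped. Of 38 Toll-like receptor and NF-kB genes 27 were positive, with a median of 0.21 (1 left out: 0.12 to 0.43). At an unadjusted p under 0.05, 6 were positive (5.53% of all rows).

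MYD88, the adaptor that most Toll-like receptors and the interleukin-1 receptor signal through, had 0.86 and 0.52 on the diet M day arrays, against -0.56 and -1.43 on the diet S day arrays. The diet arrays, M over S, gave 1.49 and 3.09 at day +7, against 0.91 and 0.73 at day -14. No array type overlapped its counterpart, and the interaction of MYD88 was 1.58 ± 0.34 (unadjusted p 0.00191). Its 3 features gave 1.28 to 1.92. NLRP3, the inflammasome sensor, had -0.59 and 1.01 on the diet M day arrays, against -1.92 and -1.73 on the diet S day arrays. Its interaction was 2.13 ± 0.52, from a single dim feature (median recovered brightness 10.5). Recovered brightness is a lower bound, and dim here means a recovered value under 64. The text does not flag every dim gene.

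IL1B, which encodes interleukin-1 beta, had 0.10 and 0.89 on the diet M day arrays, against -2.13 and -2.10 on the diet S day arrays. Set M over S, the values were 1.54 and 3.25 at day +7, against 1.84 and 1.62 at day -14. The day arrays were apart and the diet arrays overlapped, and the interaction was 1.64 ± 0.55. IL1RN, the receptor antagonist, had 1.56 ± 0.52 and CASP4, the caspase that responds to cytosolic lipopolysaccharide, had 1.31 ± 0.38. Agonist and antagonist therefore had estimates of like sign and size. The receptors TLR4 (0.95 ± 0.60) and TLR8 (1.25 ± 0.53) and the NF-kB inhibitor NFKBIA (1.04 ± 0.38) were positive as well. The receptors had no common direction. TLR2 was near 0 (0.03 ± 0.36), and TLR3 (-1.92 ± 0.94, a dim feature) and TLR7 (-0.28 ± 0.31) were among the 11 negative members of the Toll-like receptor and NF-kB list. BCL3, a nuclear NF-kB cofactor, had 1.95 ± 0.75 from a dim feature.

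Cytokine and chemokine genes had a median between those of the inflammasome and the Toll-like receptor lists. Of 12 measured 9 were positive, with a median of 0.32 and 1 at an unadjusted p under 0.05 (5.53% of all rows), which was IL23A (1.07 ± 0.44). That median changed sign with the arrays used (1 left out: -0.15 to 0.77), and it was -0.05 from the 4 day arrays alone. CXCL8, the main neutrophil chemoattractant, had 0.67 ± 0.98. Adhesion and chemotaxis genes were positive in 17 of 18, against 47.1% of all rows, with a median of 0.59 (1 left out: 0.28 to 0.94). At an unadjusted p under 0.05, 4 were positive (5.53% of all rows). SELPLG, the selectin ligand used for rolling, had 1.46 ± 0.43, with 3 features between 1.24 and 1.78. CXCR1, a receptor for CXCL8, had 2.10 ± 0.64, and the complement receptor C5AR1 had 1.75 ± 0.61. The diet arrays of day +7 were far apart on this list, with medians of 0.23 and 2.47, against 0.89 and 0.53 at day -14. The diet M day arrays had medians of 0.15 and 0.81, against 0.17 and -0.88 on the diet S day arrays. The array types thus overlapped in both sets.

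**Figure D5:**
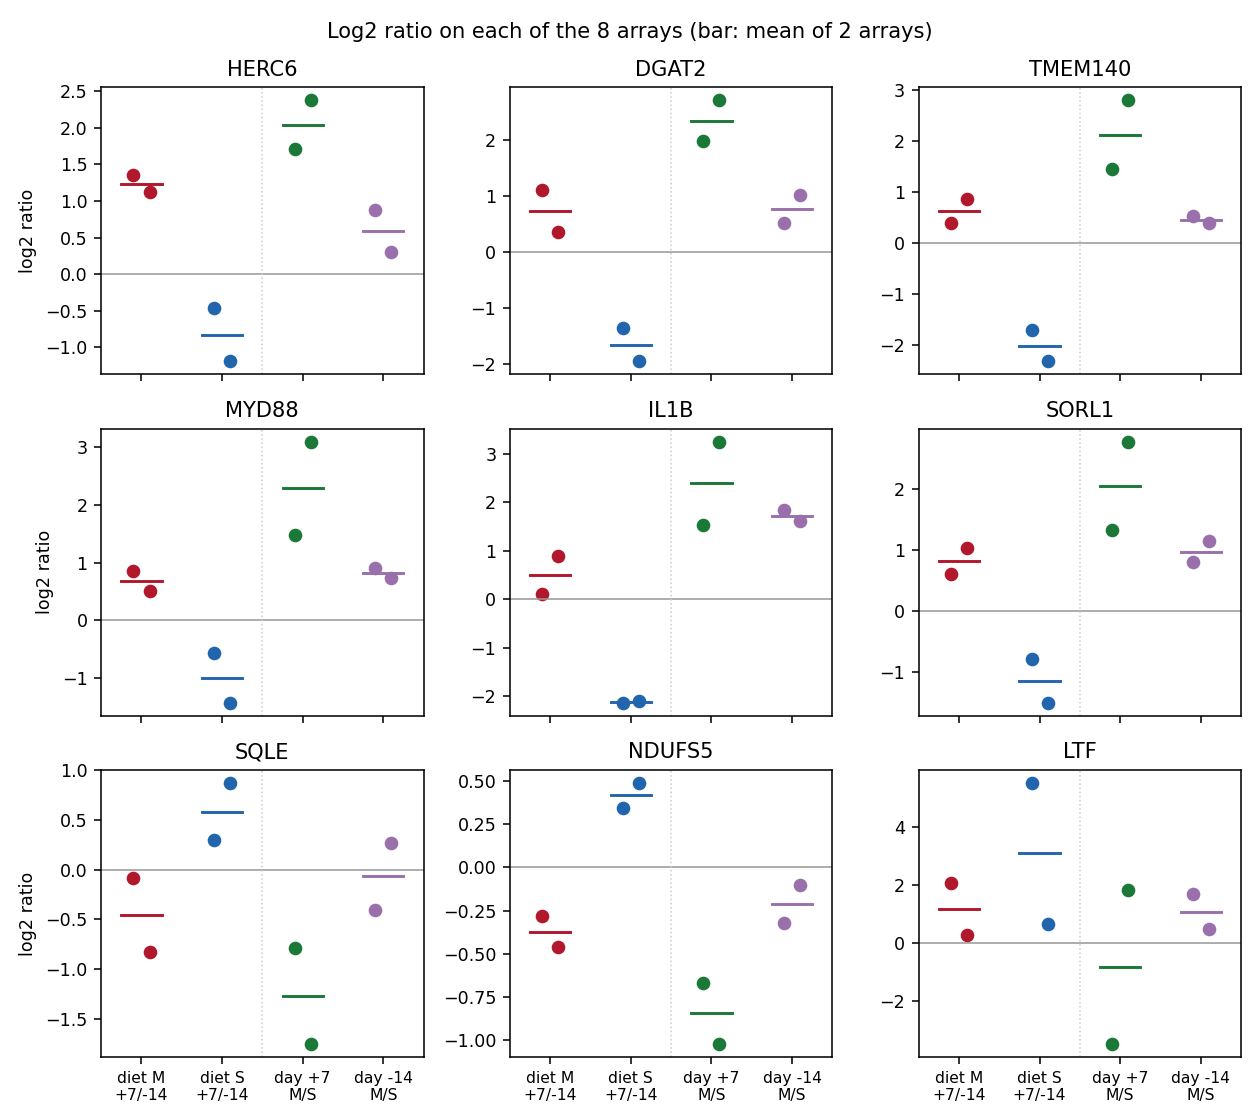
Log2 ratio (y axis) of 9 genes on each of the 8 arrays: day +7 over day -14 on diet M (red) and diet S (blue), and M over S at day +7 (green) and day -14 (purple); bars are the mean of 2 arrays. HERC6, DGAT2, TMEM140, MYD88 and SORL1 have no overlap of red with blue or green with purple; IL1B overlaps in its diet arrays and LTF in both sets.

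Glucocorticoid-responsive genes were positive in 16 of 25 measured, with 7 positive at an unadjusted p under 0.05 (5.53% of all rows). Their median was 0.38 (1 left out: 0.17 to 0.52). The median was 0.17 with the deposited ratios not centred. TSC22D3 (also known as GILZ), a mediator of glucocorticoid action, had 0.19 and 0.80 on the diet M day arrays, against -1.15 and -1.90 on the diet S day arrays. Its interaction was 1.51 ± 0.44, and the diet arrays overlapped. ZFP36, which destabilises cytokine mRNA, had 1.66 ± 0.45, and the kinase SGK1 had 1.81 ± 0.58. The receptor itself, NR3C1, was below 0 in both diets, at -0.30 on M and -0.79 on S (0.49 ± 0.31). Of the 25 genes, 9 had a negative interaction. Among them were FKBP5 (-0.73 ± 0.38), with day changes of 0.06 on diet M and 0.78 on diet S, and CD163 (-0.72 ± 1.15).

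Oxidative burst and antioxidant genes were split, with 12 of 25 positive and a median of -0.05, which was 0.13 with the deposited ratios centred (1 left out: -0.17 to 0.32). The oxidase subunits had unlike estimates: NCF1, the cytosolic organiser, had 1.16 ± 0.39, while CYBB, the membrane catalytic subunit, had -0.25 ± 0.28. NFE2L2, the antioxidant response factor, had 1.26 ± 0.39 and the mitochondrial dismutase SOD2 1.60 ± 0.60. Eicosanoid genes were positive in 8 of 12 (median 0.44; 1 left out: -0.12 to 0.82, so the sign turned), and the prostaglandin receptor PTGER4 had 1.19 ± 0.51. Apoptosis and survival genes were positive in 14 of 20 (median 0.20; 1 left out: 0.012 to 0.42). The death receptor FAS had 0.49 and 0.33 on the diet M day arrays, against -1.51 and -2.22 on the diet S day arrays. FAS did not overlap in either set of arrays, with an interaction of 2.02 ± 0.43. BCL2L11, a pro-apoptotic member of the BCL2 family, had 1.80 ± 0.58, and the tumour necrosis factor receptor TNFRSF1A had 1.40 ± 0.52.

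Lipid and cholesterol synthesis genes held members on both extremes. Of 22 measured 16 had a negative interaction (median -0.50; 1 left out: -0.62 to -0.26), and the median day change was -0.26 on diet M and 0.17 on diet S. SQLE, the squalene epoxidase of the cholesterol pathway, had -0.08 and -0.83 on the diet M day arrays, against 0.30 and 0.87 on the diet S day arrays. For M over S it had -0.79 and -1.76 at day +7, against -0.40 and 0.27 at day -14. The array types did not overlap, and the interaction of SQLE was -1.12 ± 0.36. CYP51A1, a later enzyme of the same pathway, had -0.84 ± 0.34, and the desaturase SCD had -0.72 ± 0.50.

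DGAT2, which makes triglyceride from diacylglycerol, stood opposite to them. It had 1.11 and 0.36 on the diet M day arrays, against -1.37 and -1.96 on the diet S day arrays. Its M over S ratios were 1.99 and 2.71 at day +7, against 0.51 and 1.01 at day -14. DGAT2 did not overlap in either set, and its 3 bright features gave 1.84 to 2.16, with an interaction of 1.99 ± 0.36. PLIN2, a coat protein of lipid droplets, was also positive (1.02 ± 0.33).

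Fatty acid oxidation genes had a median of 0.01, with 12 of 24 positive, and -0.03 with the deposited ratios not centred (1 left out: -0.11 to 0.14). The median day change was 0.22 on diet M and 0.20 on diet S. CPT1A, which carries fatty acids into mitochondria, had 1.48 on M and 0.69 on S (interaction 0.79 ± 0.68), and the pyruvate dehydrogenase kinase PDK4 had 2.34 on M and 1.34 on S (1.00 ± 0.97). Glycolysis genes had a median of -0.03, with 9 of 21 positive, and 0.11 with the deposited ratios centred (1 left out: -0.40 to 0.48). The glucose transporter SLC2A3 had 0.83 ± 0.35. PFKFB4, which makes the main activator of phosphofructokinase, had 2.22 ± 0.96 from a dim feature.

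Genes for making protein and for respiration had small values of the negative sign. Of 69 ribosomal protein genes 68 had a negative interaction, with a median of -0.42. However, 0 of them had an unadjusted p under 0.05, against 0.833% of all rows on the negative side. The day change was above 0 in 18 of the 69 on diet M (median -0.11) and in 68 on diet S (median 0.32). The list median was -0.05 and -0.29 on the diet M day arrays, against 0.06 and 0.66 on the diet S day arrays. For M over S it was -0.46 and -1.17 at day +7, against -0.41 and -0.57 at day -14, so that the diet arrays overlapped. In 17 of the 69, both diet M day arrays were below 0 and both diet S day arrays above it (6.14% of all rows). The arrays did not overlap in either set for 9 of the 69, against 2.5% of all rows. RPS7, a protein of the small ribosomal subunit, had -0.63 ± 0.31, and RPL11, of the large one, had -0.56 ± 0.29. Leaving out 1 array or cow at a time kept the median between -0.58 and -0.30. With the ratios as deposited and only centred on each array's median, the median of all rows was 0.08, 62 of the 69 ribosomal protein genes were negative and their median was -0.26.

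Of 76 oxidative phosphorylation genes 64 were negative (median -0.33, 1 left out: -0.38 to -0.22), 1 of them at an unadjusted p under 0.05 (0.833% of all rows). That gene was NDUFS5, an accessory subunit of complex I. It had -0.28 and -0.46 on the diet M day arrays, against 0.34 and 0.49 on the diet S day arrays. The diet arrays, M over S, gave -0.67 and -1.02 at day +7, against -0.32 and -0.10 at day -14. NDUFS5 did not overlap in either set, and its interaction was -0.71 ± 0.28. The complex I subunit NDUFB1 (-0.65 ± 0.32) and ATP5MC3, of the ATP synthase ring (-0.66 ± 0.30), were similar. In 23 of the 76 both diet M day arrays were below 0 and both diet S day arrays above it (6.14% of all rows), and the arrays did not overlap in either set for 13 (2.5% of all rows). With the deposited ratios centred, 48 of the 76 were negative, with a median of -0.14.

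Lists of neighbouring function had medians of the same sign. TCA cycle genes were negative in 17 of 21 (median -0.33; 1 left out: -0.44 to -0.19), with MDH1, a malate dehydrogenase, at -0.63 ± 0.29 and DLD, a shared dehydrogenase subunit, at -0.88 ± 0.42. Translation factors were negative in 30 of 38 (median -0.26; 1 left out: -0.40 to -0.10), with the initiation factor subunit EIF3K at -0.63 ± 0.30. Ribosome biogenesis genes were negative in 22 of 26 (median -0.25; 1 left out: -0.55 to 0.10), with NOP16 at -0.71 ± 0.34. Proteasome genes were negative in 27 of 39 (median -0.23; 1 left out: -0.29 to -0.15), with the ATPase subunit PSMC5 at -0.49 ± 0.28. None of these 4 lists had a member at an unadjusted p under 0.05 in either direction. With the deposited ratios centred, the medians were -0.21 for TCA cycle genes, -0.08 for translation factors and -0.06 for proteasome genes.

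Cell cycle and stress lists had no common direction. Cell cycle genes were positive in 9 of 23 (median -0.25, 1 left out: -0.73 to 0.03). The mitotic kinase AURKA was at -1.03 ± 0.39 and the mitotic proteins NUSAP1 and BUB1B at 1.18 ± 0.38 and 1.36 ± 0.53. AURKA and BUB1B each rested on a dim feature. Unfolded protein and heat shock genes were positive in 11 of 27 (median -0.17; 1 left out: -0.37 to -0.0064), and the stress transcription factors ATF4 (1.15 ± 0.43) and DDIT3 (1.09 ± 0.37) were among the positive ones. Of 19 genes in the MHC class II list 9 were measured. CIITA and class II chain genes such as BOLA-DRA, BOLA-DRB3 and BOLA-DQA1 were not among them. Of the 9 measured 3 were positive, with a median of -0.34, which was -0.13 with the deposited ratios centred. That median changed sign with the arrays used (1 left out: -0.40 to 0.46). In that list the co-stimulatory molecule CD80 had 1.62 ± 0.35 from a dim feature. A list of 40 genes known from studies of PMNL, which overlaps those above, had 34 measured and 23 positive, with a median of 0.61 (1 left out: 0.27 to 0.83).

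Among single genes, the 12 with the smallest p on the positive side had interactions of 1.68 to 3.62. In all 12 the arrays were apart in both sets, against 4.26% of all rows. This order follows largely from how the genes were picked, by p and like signs in both sets, and is a description. OLIG1, a transcription factor best known from the glial lineage, had the smallest p of all rows with a symbol (unadjusted p 6.0e-05, limma adjusted p 0.716). It stood at 2.14 and 1.41 on the diet M day arrays, against -0.33 and -1.02 on the diet S day arrays. Set M over S, the values were 2.17 and 3.66 at day +7, against 0.16 and 0.05 at day -14. The day -14 values of OLIG1 lay close to 0, so that its diet difference was seen at day +7, and the interaction was 2.63 ± 0.33. Its only feature was dim, with a median recovered brightness of 11.9.

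Of these 12 genes, 6 had a median recovered brightness of at least 64, and 8 rested on 1 feature. TMEM140, a transmembrane protein, was one of the bright ones. It had 0.39 and 0.87 on the diet M day arrays, against -1.71 and -2.32 on the diet S day arrays. For M over S it had 1.45 and 2.80 at day +7, against 0.54 and 0.39 at day -14. TMEM140 thus differed mainly in its diet S day change, and its interaction was 2.15 ± 0.41.

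P2RY12, the ADP receptor known from platelets and microglia, had a day change of 0.11 on diet M and -2.56 on diet S (2.68 ± 0.50). SEMA4D, a semaphorin of leukocytes, had 0.43 on M and -1.98 on S (2.41 ± 0.46). SOCS3, a feedback inhibitor of cytokine signalling, had 1.12 on M and -1.49 on S (2.61 ± 0.48), from a feature with a recovered brightness of 11.8. The adaptor EFS had 0.18 on M and -1.62 on S (1.81 ± 0.36), again from a dim feature. In P2RY12, SEMA4D and EFS the diet M value was small beside the diet S value.

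PLEKHG5 had 1.90 on M and -0.81 on S (2.70 ± 0.42), from a feature with a recovered brightness of 6.37. The chloride transporter SLC12A5 had 1.84 ± 0.37, but its 2 features differed, at 0.50 and 3.18. The median recovered brightness of SLC12A5 was 25.1. LOC618087 had 3.62 ± 0.72 from the dimmest of these features, with a recovered brightness of 1.86.

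The 12 genes with the smallest p on the negative side had smaller values, from -1.65 to -0.84. In 9 the arrays were apart in both sets (2.5% of all rows), which again follows largely from how they were picked. MAPT, the microtubule-associated protein tau, had 0.04 and -0.63 on the diet M day arrays, against 1.12 and 1.42 on the diet S day arrays. Its M over S ratios were 0.52 and -0.39 at day +7, against 2.51 and 0.82 at day -14. The interaction of MAPT was -1.58 ± 0.45, and its only feature was dim. CKAP4, an endoplasmic reticulum membrane protein, had 3 features between -1.45 and -0.52 and an interaction of -1.04 ± 0.32. Its day change was 0.04 on diet M and 1.08 on diet S.

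RAB6A, a GTPase of Golgi transport, had -0.01 on M and 1.21 on S (-1.22 ± 0.41), and RABL3, a RAB-like GTPase, had -1.38 ± 0.40. SDHAF3, an assembly factor of succinate dehydrogenase, had -1.11 ± 0.37, and MTFMT, which formylates the mitochondrial initiator tRNA, had -1.65 ± 0.57. TMEM192, a lysosomal membrane protein, had -1.31 on M and -0.03 on S (-1.29 ± 0.41). STIMATE, a regulator of store-operated calcium entry, had -0.94 on M and -0.10 on S (-0.84 ± 0.28). YEATS2, a chromatin reader (-1.22 ± 0.41), APTX, a DNA repair enzyme (-0.87 ± 0.29), and PGM2L1, a sugar phosphomutase-like enzyme (-1.31 ± 0.39), completed the 12. Of these 12 negative genes, 5 had a median recovered brightness of at least 64, and 11 rested on 1 feature. MAPT, RABL3, MTFMT, TMEM192, STIMATE, YEATS2 and PGM2L1 were the dim ones.

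The PMNL label was set against markers on the same arrays. Of 24 mature neutrophil genes 17 had values on all 8 arrays, and CSF3R and CXCR2, receptors that define the cell, did not. Markers of other cells had values as well: 22 of 31 for T and NK cells, 15 of 20 for B cells, 13 of 19 for monocytes, 4 of 18 for eosinophils and basophils, 4 of 15 for platelets and 5 of 16 for red cells. Not every listed gene was on the platform, which held 22 of the mature neutrophil genes and 29 of the T and NK cell markers. It held 16 for B cells, 18 for monocytes, 10 for eosinophils and basophils, 10 for platelets and 12 for red cells. Over the platform 19981 of 43803 features had a value on all 8 arrays. The counts therefore do not show which cells were present.

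The interaction of those markers differed in direction between the 6 lists. The median of each list changed sign when some array or cow was left out. Of 22 T and NK cell markers 6 had a positive interaction (median -0.37), of 15 B cell markers 3 (median -0.27) and of 13 monocyte markers 3 (median -0.46). These lists lay mostly on the negative side, while 47.1% of all rows had a positive interaction. All 4 eosinophil and basophil markers measured were positive (median 0.58), as were 3 of 4 platelet markers (median 0.46) and 3 of 5 red cell markers (median 0.28). In the monocyte list 2 members reached an unadjusted p under 0.05, both positive (5.53% of all rows). They were CD68, a lysosomal glycoprotein of phagocytes (2.16 ± 0.51), and SIRPA, an inhibitory receptor that myeloid cells including neutrophils carry (1.83 ± 0.54). The negative members of that list numbered 10 of 13.

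These marker lists varied widely between arrays. The monocyte median was 0.66 and 0.22 on the diet M day arrays, against 2.84 and -0.12 on the diet S day arrays. For M over S at day +7 it was -0.39 and 3.001. The eosinophil and basophil median reached 6.22 on the second array of M over S at day +7, against -0.45 on the first. B cell markers stood at -2.59 on that same second array and 0.46 on the first. Without the arrays of cow 8041, that array among them, the median interaction was 1.42 for interferon-stimulated genes and 1.03 for mature neutrophil genes. It was -0.42 for ribosomal protein genes and -0.66 for the 4 eosinophil and basophil markers. That array also carried cow 7977 of diet M. The eosinophil and basophil median changed sign without the arrays of cow 7977 too. The part of the cell mixture in the interaction was not tested.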

How the data were processed

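The authors deposited log2 ratios of both channels of each 2-colour Agilent bovine array, with 43803 features. Per the labels' protocols, each channel began with 200 ng of RNA, labelled Cy3 or Cy5. Neither scanner nor image software, background method or slide is recorded in the labels, and the ratios were not normalised: 97.8 to 98.5% were ratios of whole numbers up to 10000 (tolerance 1e-09; 2.2 to 2.9% after a constant was added to every value), whose size gave a spot brightness (a lower bound). Loess of ratio on brightness was subtracted within each array (span 0.4). Features with values on all 8 arrays (19981) were kept, and features of 1 symbol were averaged. Symbols came from the platform annotation, updated through a RefSeq table (30788 features).

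The limma model (version 3.58.1, R 4.3.3) had 3 terms for the 4 groups plus 1 for dye. The residual degrees of freedom were 4. The moderated SEs and p-values also used 3.64 prior degrees of freedom, estimated from all rows. The interaction was tested two-sided, with Benjamini-Hochberg adjustment and a threshold of 0.05. Named were the 12 genes of each sign with the smallest p and the same sign in both sets of 4 arrays, the 3 members of each list with the smallest p, and a list of PMNL genes. This rule named 133 genes. The text describes 92 of them, selected after their values were seen, and the closing section gives the stability of the other 41. TLR2 is mentioned in the text but counted among those 41. ISG15, IFIT2, IFIT3, TLR3, TLR7, FKBP5 and CD163 are described outside this rule, and their stability is not given. Members and lists were chosen with earlier results of these data known. The alternatives were the values as deposited (centred and not), a brightness of at least 64, values on at least 7 arrays, array weights, no dye term, the cow as replicate block, single features, each array or cow left out, and either set of 4 arrays alone. The scripts were tested on simulated data.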

Additional observations from a re-analysis of the deposited data

Results flagged for a closer look

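In 6 gene lists the median on both diet M day arrays lay on one side of 0 and the median on both diet S day arrays on the other. That difference between the diets was not tested on the list. The medians on the diet arrays of day +7 and day -14 overlapped for the inflammasome, glucocorticoid-responsive and ribosomal protein lists. They did not for the interferon-stimulated, oxidative phosphorylation and proteasome lists. The median interaction was 1.056 for interferon-stimulated genes, 0.712 for inflammasome and interleukin-1 genes and 0.385 for glucocorticoid-responsive genes, where the diet M arrays were above 0 and the diet S arrays below. It was -0.332 for oxidative phosphorylation, -0.420 for ribosomal protein and -0.227 for proteasome genes, where the diet M arrays were below 0 and the diet S arrays above. With 2 arrays per diet, no array can be judged an outlier within its group. Among 4213 genes with several features, 37.2% had features whose interaction differed in sign.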

How the results depend on the processing

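No row was called for the interaction or for the day change in either diet under any alternative in which rows were tested. The count at an unadjusted p under 0.05 was 832 as reported and ran from 263 to 1221 when 1 array or 1 cow was left out. With the cow as replicate block (correlation of 2 samples of a cow 0.22) it was 1151, 943 positive and 208 negative, with a lowest adjusted p of 0.321, and no gene was called. It was 878 with the values as deposited and centred (818 positive, 60 negative), and 646 with no centring (528 positive, 118 negative). On single features it was 1222. The direction turned under at least 1 alternative for 9 of the 92 described genes. TLR2, given above as near 0, turned too and is counted among the other 41 below. S100A9 was at 1.10 with values on at least 7 arrays. From the 4 day arrays alone CXCL8 was at -0.13, S100A9 at 0.35 and PDK4 at -0.27. From the 4 diet arrays alone CATHL2 was at 1.78 and HP at 0.80. When 1 array or cow was left out, the interaction ran from -2.43 to 1.51 for CATHL2, -0.82 to 2.16 for CXCL8, -2.46 to 0.51 for HP, -0.67 to 0.13 for IFI44, -2.03 to 0.034 for IL1R2, -2.10 to 0.20 for MMP9, -0.14 to 2.06 for PDK4, -1.26 to 0.51 for S100A8 and -1.09 to 0.76 for S100A9. The causes were not tested. The described genes were selected after their values were seen, and their directions held more often than those of the genes left out: among the other 41 genes named by the same rule, 16 turned. Over all settings the interaction of those at a positive value as reported ran from -1.90 to 2.72 for ALOX15, -0.47 to 0.49 for ALOX5AP, -1.53 to 3.27 for CCR3, -0.73 to 1.68 for ITGA2B, -0.013 to 0.69 for NFKB1, -0.44 to 1.57 for PF4, -0.13 to 1.76 for PSMB8, -0.73 to 1.52 for SELP, -0.35 to 1.90 for TGFB1 and -0.22 to 0.29 for TLR2. For those at a negative value it ran from -1.45 to 0.16 for BLK, -1.52 to 0.49 for BPGM, -1.92 to 0.20 for C1QB, -1.43 to 0.22 for POU2AF1, -0.66 to 0.066 for RFX5 and -0.75 to 0.44 for TNF. Of 30 list medians 15 changed sign when some array or cow was left out, and 16 did under at least 1 alternative. With 1 array or cow left out, the median ran from -1.60 to 0.22 for granule, -0.80 to 0.28 for B cell, -0.63 to 0.19 for T and NK cell, -1.16 to 0.15 for monocyte, -1.24 to 1.98 for eosinophil and basophil, -0.44 to 1.11 for platelet and -0.32 to 0.26 for red cell genes. The other 8 were the cytokine, eicosanoid, MHC class II, oxidative burst, fatty acid oxidation, glycolysis, ribosome biogenesis and cell cycle lists. From the 4 diet arrays alone the sign turned for unfolded protein (0.12), ribosome biogenesis (0.03), cell cycle (0.12), glycolysis (0.22), oxidative burst (0.12), monocyte (0.53), T and NK cell (0.23), B cell (0.02) and platelet (-0.10) genes. From the 4 day arrays alone it turned for cytokine (-0.05), fatty acid oxidation (-0.16) and eosinophil and basophil (-0.38) genes. Fatty acid oxidation also turned with a brightness of at least 64 and with array weights (-0.02 in each). Precision is limited by 2 arrays per pair of groups, and signal over background was not analysed here.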
